A study of Mus musculus with 24 samples.

Results

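Chemokines, cytokines and their receptors were examined in the distal lung of mice given bleomycin (BLM), with or without oral EXT5 or EXT9. The members were chosen by gene symbol: CC, CXC, XC and CX3C chemokines and their receptors, *Tnf*, *Ifng*, interleukins and their receptors without *Il7r*, and colony-stimulating factors and their receptors without *Csf1r*. The rule took 139 genes with 222 probes, of 45281 probes on the chip. Of these, 80 genes with 113 probes lay above the filter on dim probes, which kept the 22640 probes with a mean log2 signal above 6.705. One symbol, *Il4i1*, matched by its letters only, as it encodes an amino acid oxidase.

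The study asked how BLM, with and without the 5-HT2B receptor antagonists EXT5 and EXT9, changed pulmonary gene expression. Female C57BL/6 mice aged 12.5 weeks formed 4 groups of 6 mice, with 1 array per mouse. BLM+EXT5-treated mice and BLM+EXT9-treated mice received BLM s.c. at 50 IE per dose, 3 times a week for 2 weeks, and EXT5 or EXT9 p.o. daily at 30 mg/kg. BLM-treated mice received the same BLM injections with p.o. vehicle (Tween80, 2.5% w/v), and saline controls received s.c. saline with the same vehicle. Repeated s.c. BLM, an antitumor drug that damages DNA, is a systemic model of early pulmonary fibrosis, and no group received EXT5 or EXT9 without BLM. The lung identity of the tissue was checked: 8 of 8 alveolar type 2 (AT2) markers, 6 of 6 alveolar type 1 (AT1) markers, 3 of 4 club cell markers and 5 of 6 endothelial markers lay above the filter.

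Chemokines are small secreted proteins that guide leukocytes along concentration gradients through receptors that couple to G proteins. Interleukins and colony-stimulating factors act through receptor chains that signal by JAK and STAT proteins or, for the IL-1 and IL-17 families, through adaptors that lead to NF-kappaB. In the lung, alveolar macrophages, epithelium, lymphatic vessels and stromal cells are all known sources of such signals.

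The deposited signals fell into 2 sets of arrays, taken as the 2 array runs of the study. All 12 EXT-treated mice lay in the second run, together with 3 BLM-treated mice and 3 saline controls, and the other 3 of each of these groups lay in the first. First-run arrays had median signals of 110.2 to 110.3 and second-run arrays of 103.3, and 8122 probes, 30 of them member probes, differed between runs (limma with the run as a block, adjusted p under 0.05). Comparisons that involve EXT-treated mice were therefore given without and with the run as a block, and on second-run arrays alone. In 602 rows the first-run values appeared to stand at other probes, and 0 member probes were among them. Saline replicate 6 stood apart from the other saline controls in its T cell marker level (0.80, against -0.36 to 0.09 on the log2 scale relative to the mean of all arrays) and in its smooth muscle marker level (-0.46, against 0.34 to 0.86).

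Probes with an adjusted p under 0.05 (limma, Benjamini-Hochberg over all 22640 probes) are named as called. In comparison to saline controls, 27 member probes (23.9%) were called in BLM+EXT5-treated mice, where 14.6% of all tested probes were. Of these 12 (10.6%) were higher and 15 (13.3%) lower, where 3.42% and 11.1% of all tested probes were. In BLM+EXT9-treated mice 34 (30.1%) were called, where 23.1% of all tested probes were. Here 12 (10.6%) were higher and 22 (19.5%) lower, where 5.49% and 17.6% of all tested probes were. In BLM-treated mice 0 member probes were called, where 0.137% of all tested probes were (0.128% higher and 0.00883% lower). At an unadjusted p under 0.05 in limma, 16 (14.2%) stood in BLM-treated mice, where 7.96% of all tested probes did.

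Against BLM-treated mice, 11 member probes (9.73%) were called in BLM+EXT5-treated mice, 0 higher and 11 lower, where 7.28% of all tested probes were (1.01% higher and 6.28% lower). In BLM+EXT9-treated mice 19 (16.8%) were called, 3 (2.65%) higher and 16 (14.2%) lower, where 10.1% of all tested probes were (1.7% higher and 8.35% lower). Without BLM replicate 5 the counts against BLM-treated mice were 6 for BLM+EXT5 and 8 for BLM+EXT9. The comparisons of the EXT groups share their saline or BLM arrays. Over 1 probe per gene, the median log2 change of the 80 members against saline controls was -0.02 in BLM+EXT5-treated, -0.05 in BLM+EXT9-treated and 0.02 in BLM-treated mice, where the medians of all 12057 genes were -0.06, -0.06 and 0.00.

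A fit that carried the run as a block called 15 member probes higher and 7 lower for BLM+EXT5 against saline controls, where 10.9% of all tested probes were called (5.32% higher and 5.63% lower). For BLM+EXT9 against saline controls it called 18 higher and 13 lower, where 16.1% of all tested probes were called (7.78% higher and 8.37% lower). For BLM+EXT5 against BLM it called 3 higher and 6 lower, where 4.29% of all tested probes were called (2.35% higher and 1.94% lower), and for BLM+EXT9 against BLM 4 higher and 8 lower, where 5.11% were called (2.79% higher and 2.32% lower). For BLM against saline controls it called 1 member probe, of *Il17re*, where 0.473% of all tested probes were called (0.305% higher and 0.168% lower). On second-run arrays alone, 8 and 12 member probes were called in BLM+EXT5-treated and BLM+EXT9-treated mice against saline controls, where 3.98% and 6.36% of all tested probes were. Against BLM-treated mice these arrays gave 2 and 6, where 1.26% and 2.34% of all tested probes were called, and for BLM against saline controls 0, where 0.0398% were.

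Member probes whose groups did not overlap were also counted. Against saline controls there were 7 higher and 2 lower in BLM+EXT5-treated mice, where 1.16% and 2.22% of all tested probes lay so. In BLM+EXT9-treated mice there were 3 higher and 8 lower, where 1.42% and 3.51% of all tested probes lay so. Against BLM-treated mice there were 0 higher and 6 lower for BLM+EXT5, where 0.685% and 3.37% lay so, and 0 higher and 7 lower for BLM+EXT9, where 0.552% and 4.42% lay so. For BLM against saline controls there was 1 higher and 0 lower, where 0.477% and 0.0751% lay so.

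**Figure D1:**
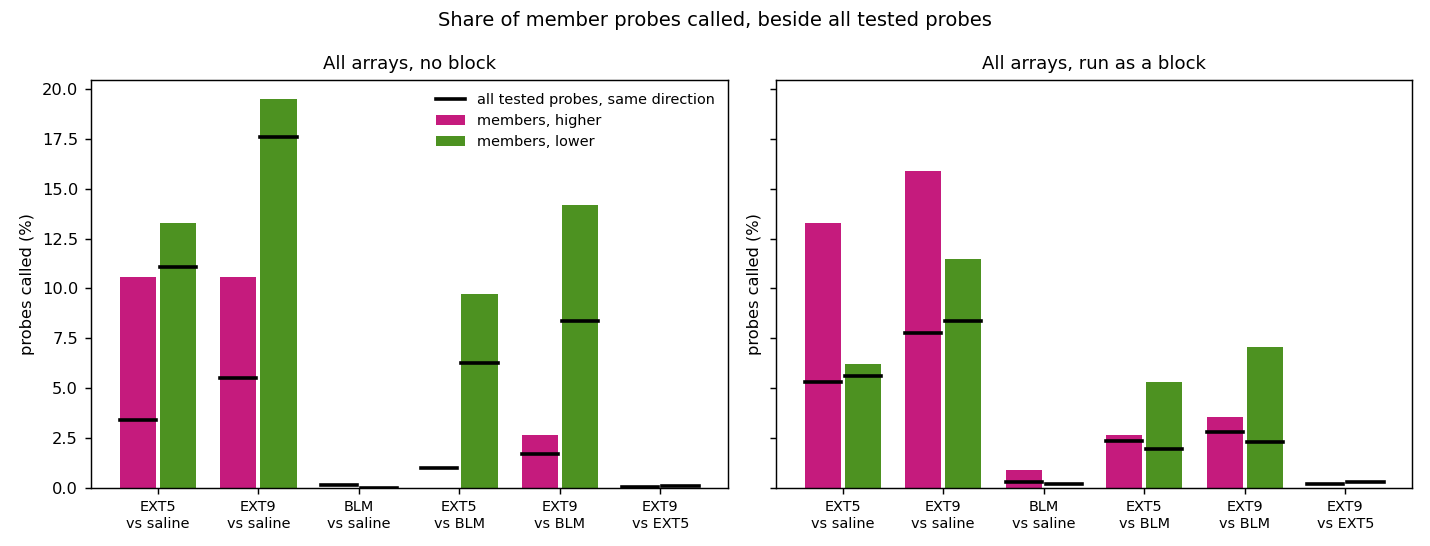
Share of the 113 member probes called higher and lower (percent, bars) in 6 comparisons, beside the share of all 22640 tested probes called in the same direction (black lines), without and with the run as a block. Among EXT comparisons with saline controls, the bars of higher calls stand at 10.6% without the block, above lines at 3.42% and 5.49%.

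The changes of individual members called in both fits are described by role, and are drawn together in the plot of log2 changes.

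**Figure D2:**
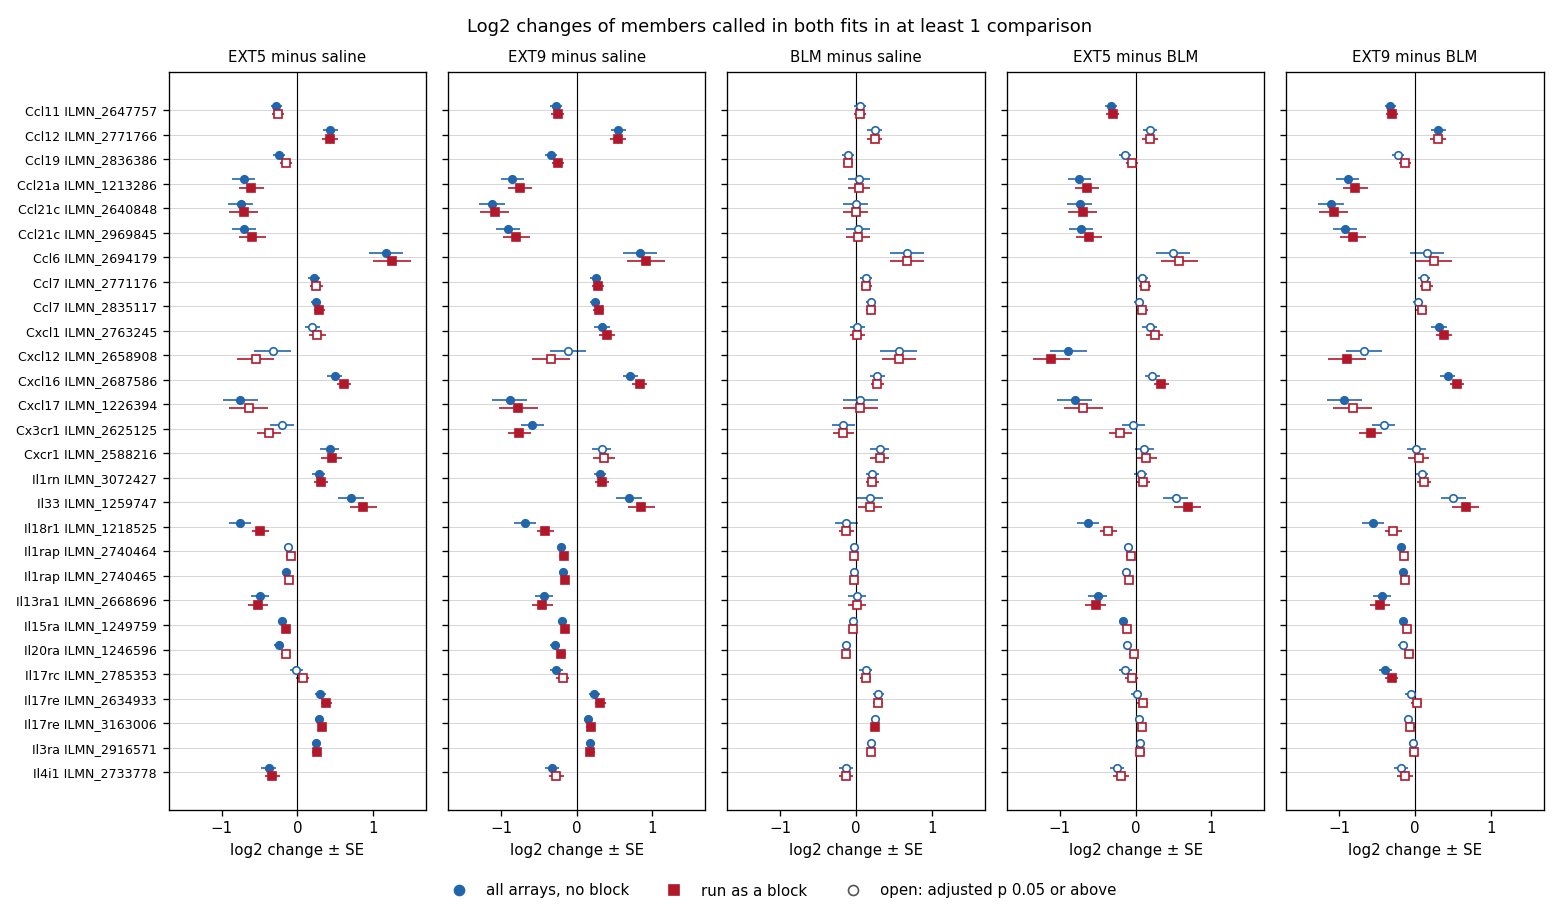
Log2 change with its standard error (x axis) for 28 probes of 24 member genes called in both fits in at least 1 comparison, without a block (circles) and with the run as a block (squares). Filled symbols were called. *Il33*, *Cxcl16* and *Ccl6* lie to the right of 0 and *Ccl21a*, *Ccl21c* and *Il13ra1* to the left in both EXT groups in comparison to saline controls.

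Upstream sequences of members called in EXT-treated mice are shown first, so that members called in the same comparisons can be set side by side. Promoter windows of 250 bases before a RefSeq start (build GRCm38.p6) were given for 60 of the 80 members, in 75 windows. Each was searched on both strands for a TATA box (TATAAA), an AP-1 motif (TGANTCA), a STAT motif (TTCNNNGAA), an interferon response motif (GAAA, 2 bases, GAAA) and an NF-kappaB motif. TATAAA stood in 15 of 75 windows (20%), where 12.4% of all 32851 windows held it. The AP-1 motif stood in 10 (13.3%, against 6.75% of all), the NF-kappaB motif in 9 (12%, against 7.25% of all), the STAT motif in 5 (6.67%, against 7.02% of all) and the interferon response motif in 3 (4%, against 2.98% of all). The 6 windows printed were picked after the search because they hold a match, which is a description of letters and not a binding site. Each line gives 150 bases, 5′ to 3′ on the strand of the gene, and capitals mark the match.
TATA box, 31 bases before the start of *Ccl12*, a monocyte-attracting chemokine, and 29 bases before the second of 2 starts of *Il33*:
Ccl12, chr11:82101695-82101844, plus strand: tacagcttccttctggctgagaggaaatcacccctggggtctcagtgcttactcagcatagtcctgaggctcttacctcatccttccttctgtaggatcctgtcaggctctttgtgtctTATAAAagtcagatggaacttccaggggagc
Il33, chr19:29945640-29945789, plus strand: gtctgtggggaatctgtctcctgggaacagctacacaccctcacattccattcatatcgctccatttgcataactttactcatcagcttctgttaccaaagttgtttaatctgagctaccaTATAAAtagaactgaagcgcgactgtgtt
NF-kappaB motif before *Cxcl1*, a neutrophil-attracting chemokine (2 overlapping matches that begin 71 and 70 bases before the start):
Cxcl1, chr5:90891095-90891244, plus strand: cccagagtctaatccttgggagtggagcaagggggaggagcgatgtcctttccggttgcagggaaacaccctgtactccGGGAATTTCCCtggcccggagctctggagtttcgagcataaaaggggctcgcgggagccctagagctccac
AP-1 motif 141 bases before the first of 3 starts of *Il1rn*, the IL-1 receptor antagonist:
Il1rn, chr2:24336710-24336859, plus strand: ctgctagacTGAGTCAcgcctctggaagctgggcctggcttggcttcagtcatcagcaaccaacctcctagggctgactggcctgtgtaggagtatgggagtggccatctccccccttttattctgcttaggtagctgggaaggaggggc
STAT motif before *Cxcl14* (191 bases) and before the third of 3 starts of *Il18r1* (219 and 152 bases):
Cxcl14, chr13:56296652-56296801, minus strand: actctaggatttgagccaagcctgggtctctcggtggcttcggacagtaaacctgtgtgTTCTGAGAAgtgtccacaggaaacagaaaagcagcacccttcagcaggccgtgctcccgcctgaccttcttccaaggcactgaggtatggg
Il18r1, chr1:40465756-40465905, plus strand: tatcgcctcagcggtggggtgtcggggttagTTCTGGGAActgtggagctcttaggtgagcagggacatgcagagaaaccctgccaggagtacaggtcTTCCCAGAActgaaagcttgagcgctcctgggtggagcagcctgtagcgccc

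Among CC chemokines, 16 of 22 genes lay above the filter, and 6 did not (*Ccl1*, *Ccl2*, *Ccl20*, *Ccl22*, *Ccl26* and *Ccl28*). *Ccl6*, a myeloid chemokine of rodents, had log2 signals of 8.44, 8.76 and 8.93 (lowest, median and highest array) in BLM+EXT5-treated mice, 7.94, 8.37 and 8.98 in BLM+EXT9-treated mice, 7.72, 8.06 and 9.17 in BLM-treated mice and 7.02, 7.52 and 8.34 in saline controls. All 6 BLM+EXT5-treated mice lay above all saline controls, whereas the BLM+EXT9-treated and BLM-treated mice overlapped with them. In comparison to saline controls, *Ccl6* rose by 1.17 ± 0.22 in BLM+EXT5-treated mice (2.25-fold; SE, n = 6 per group; limma adjusted p = 0.0012) and by 0.83 ± 0.22 in BLM+EXT9-treated mice (limma adjusted p = 0.00975). With the run as a block the changes were 1.25 and 0.92 (limma adjusted p = 0.00283 and 0.0152), and on second-run arrays 1.12 and 0.79, of which the first was called. BLM-treated mice had a change of 0.67 ± 0.22 that did not pass (limma adjusted p = 0.324).

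*Ccl12*, a monocyte chemoattractant of the mouse, was measured by a probe (ILMN_2771766) at 7.07, 7.48 and 7.66 in BLM+EXT5-treated, 7.25, 7.64 and 7.77 in BLM+EXT9-treated and 7.10, 7.25 and 7.44 in BLM-treated mice, and at 6.86, 7.01 and 7.23 in saline controls. Every BLM+EXT9-treated mouse lay above every saline control, and 5 of 6 BLM+EXT5-treated mice did. The change in comparison to saline controls was 0.44 ± 0.10 for BLM+EXT5 and 0.55 ± 0.10 for BLM+EXT9 (limma adjusted p = 0.0036 and 0.000563), and 0.43 and 0.55 under the run block (limma adjusted p = 0.0123 and 0.00223). On second-run arrays the BLM+EXT9 call against saline controls was kept and the BLM+EXT5 call was lost. Against BLM-treated mice *Ccl12* was called higher at this probe in BLM+EXT9-treated mice (0.31, limma adjusted p = 0.0461), and the call was lost with the block (limma adjusted p = 0.103). A second *Ccl12* probe (ILMN_3161805) had smaller changes in comparison to saline controls, 0.20 for BLM+EXT5 and 0.24 for BLM+EXT9. Only the latter was called, and its call was lost with the block, on second-run arrays and with the 2 compared groups alone. *Ccl7*, another monocyte chemoattractant, was called higher by both of its probes in both EXT groups in comparison to saline controls, with changes of 0.22 to 0.25. Its probe ILMN_2835117 had medians of 6.93, 6.95 and 6.91 in BLM+EXT5-treated, BLM+EXT9-treated and BLM-treated mice and 6.67 in saline controls, close to the filter. The call of the probe ILMN_2771176 in BLM+EXT5-treated mice was lost with the run as a block (limma adjusted p = 0.0515). On second-run arrays the BLM+EXT5 calls of both probes and the BLM+EXT9 call of ILMN_2771176 were lost.

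The macrophage marker list moved with these 3 chemokines. Its mean level, relative to all arrays, ranged over -0.00 to 0.32 in BLM+EXT5-treated, -0.08 to 0.22 in BLM+EXT9-treated and -0.30 to 0.27 in BLM-treated mice and -0.52 to 0.05 in saline controls, with 1 of 4 tested markers, *Mrc1*, called higher in each EXT group in comparison to saline controls and 3 of 4 with the run as a block. In tissue RNA a change in the number of cells of a type and a change in RNA per cell cannot be told apart, and the part of macrophages in these changes was not tested.

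*Ccl21a* and *Ccl21c*, nearly identical genes for the CCR7 ligand that draws dendritic cells and T cells to lymphatic vessels, fell in both EXT groups. Their probes may share transcripts and are reported as uncertain in their assignment. *Ccl21c* (ILMN_2640848) had signals of 9.07, 9.37 and 9.98 in BLM+EXT5-treated mice, 8.44, 9.09 and 9.65 in BLM+EXT9-treated mice, 9.90, 10.20 and 10.35 in BLM-treated mice and 9.92, 10.22 and 10.37 in saline controls. The BLM+EXT9-treated mice did not overlap with either BLM-treated mice or saline controls, and 5 of 6 BLM+EXT5-treated mice lay below both. The change was -0.75 ± 0.17 for BLM+EXT5 and -1.12 ± 0.17 for BLM+EXT9 in comparison to saline controls (limma adjusted p = 0.00402 and 0.000176), and -0.74 and -1.11 in comparison to BLM-treated mice (limma adjusted p = 0.012 and 0.00127).

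With the run as a block the *Ccl21c* changes against saline controls were -0.71 and -1.08 (limma adjusted p = 0.0176 and 0.000842). The *Ccl21a* probe gave 9.57, 10.03 and 10.47 in BLM+EXT5-treated, 9.43, 9.73 and 10.33 in BLM+EXT9-treated and 10.58, 10.72 and 10.88 in BLM-treated mice and 10.35, 10.70 and 11.02 in saline controls. All EXT-treated mice were below all BLM-treated mice, and its change in comparison to them was -0.74 ± 0.15 for BLM+EXT5 and -0.89 ± 0.15 for BLM+EXT9 (limma adjusted p = 0.00747 and 0.00222). BLM-treated mice differed from saline controls by 0.04 ± 0.15 for *Ccl21a* and by -0.01 ± 0.17 for *Ccl21c* (limma adjusted p = 0.993 and 1). This BLM change was greater in the second run than in the first by 0.51 and 0.48 (limma adjusted p = 0.9999 for each). On second-run arrays the BLM+EXT5 calls of *Ccl21a* and *Ccl21c* were lost against both saline controls and BLM-treated mice. The BLM+EXT9 calls were kept there, except that of *Ccl21a* against saline controls.

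Of 4 tested lymphatic endothelial markers, 2 were called lower in the same comparisons. The level of the list ranged over -0.44 to -0.00 in BLM+EXT5-treated, -0.33 to 0.03 in BLM+EXT9-treated and 0.11 to 0.41 in BLM-treated mice and -0.09 to 0.35 in saline controls. *Mmrn1* and *Reln* were called lower in each EXT group in comparison to saline controls and to BLM-treated mice, without and with the run as a block. *Flt4* and *Lyve1* were not called, with changes of -0.02 and -0.04 in BLM+EXT5-treated and 0.03 and 0.02 in BLM+EXT9-treated mice against saline controls, and *Prox1* lay below the filter. Against BLM-treated mice 0 of the 4 tested markers had a positive change in either EXT group, with median changes of -0.48 for BLM+EXT5 and -0.41 for BLM+EXT9. The part of lymphatic vessels in the Ccl21 changes was not tested.

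**Figure D3:**
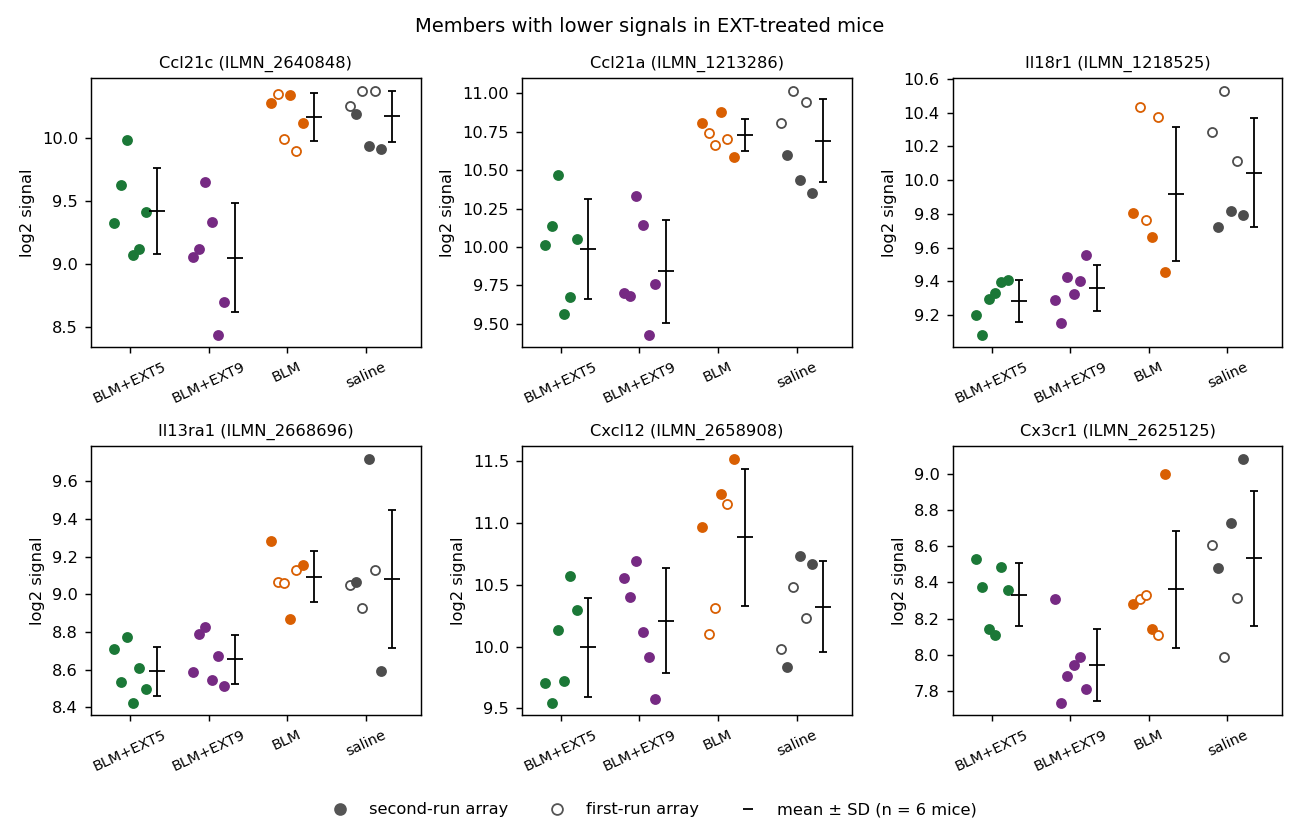
Log2 signals of each mouse for 6 member probes with lower calls in EXT-treated mice (y axis), by group, with first-run arrays open and second-run arrays filled, and with the mean and SD of 6 mice. For *Ccl21a* the BLM+EXT5 and BLM+EXT9 points lie below all BLM points.

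*Ccl11* (eotaxin-1), which attracts eosinophils, was dim, with signals of 6.79, 6.86 and 6.99 in BLM+EXT5-treated, 6.82, 6.84 and 6.96 in BLM+EXT9-treated and 7.09, 7.17 and 7.36 in BLM-treated mice and 6.76, 7.20 and 7.44 in saline controls at its brighter probe. All EXT-treated mice lay below all BLM-treated mice, with changes of -0.33 ± 0.07 in both groups (limma adjusted p = 0.0122 and 0.0119; 0.0419 and 0.037 under the run block). Both calls were lost on second-run arrays. Against saline controls this probe was called lower in both EXT groups, at -0.27 in each. There the BLM+EXT5 call was lost with the run as a block, and both calls were lost on second-run arrays and with the 2 compared groups alone. The dimmer *Ccl11* probe (ILMN_2862179) had changes of -0.21 in both groups against BLM-treated mice, and its calls were lost with the block and on second-run arrays. *Ccl19*, the other CCR7 ligand, fell by 0.34 ± 0.08 in BLM+EXT9-treated mice against saline controls (limma adjusted p = 0.00449; 0.0355 with the run as a block). Its call in BLM+EXT5-treated mice, at -0.25, was lost with the run as a block (limma adjusted p = 0.246), and its BLM+EXT9 call was lost on second-run arrays. *Ccl25*, a thymic and gut chemokine, was not called without a block, and in BLM+EXT5-treated mice against saline controls it was called higher at a single probe with the block (0.21, limma adjusted p = 0.0234) and on second-run arrays (0.24, limma adjusted p = 0.0413). Without a block its 2 probes had changes of -0.01 and 0.13 in this comparison. The other measured CC chemokines, the inflammatory chemokines *Ccl3*, *Ccl4* and *Ccl5*, the CCR4 ligand *Ccl17*, *Ccl8*, *Ccl9*, *Ccl24* and *Ccl27a*, were not called in any comparison. *Ccl8* came closest to a call, at 0.26 in BLM+EXT5-treated mice against saline controls (limma adjusted p = 0.0503).

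In the CXC, XC and CX3C group, 11 of 14 genes lay above the filter, and *Cxcl2*, *Cxcl3* and *Cxcl11* did not. *Cxcl16*, a membrane-bound chemokine and scavenger receptor that binds CXCR6, was higher in both EXT groups. Its probe ILMN_2687586 read 9.73, 9.96 and 10.05 in BLM+EXT5-treated mice, 9.90, 10.11 and 10.53 in BLM+EXT9-treated mice, 9.56, 9.70 and 9.91 in BLM-treated mice and 9.17, 9.49 and 9.70 in saline controls. All EXT-treated mice were above all saline controls, and 5 of 6 BLM+EXT9-treated mice were above all BLM-treated mice. In comparison to saline controls the change was 0.49 ± 0.10 for BLM+EXT5 and 0.71 ± 0.10 for BLM+EXT9 (limma adjusted p = 0.00173 and 8.4e-05), and the block moved it to 0.62 and 0.83 (limma adjusted p = 0.000436 and 1.75e-05).

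In comparison to BLM-treated mice, *Cxcl16* rose by 0.43 ± 0.10 in BLM+EXT9-treated mice (limma adjusted p = 0.0116), and this call held in all 12 alternative settings and all 24 fits that left out 1 mouse. In BLM+EXT5-treated mice the change was 0.22 ± 0.10 and was called with the run as a block but not without it (0.34, limma adjusted p = 0.0458). A second, dimmer *Cxcl16* probe (ILMN_1254723) had changes of 0.02 and 0.10 in the EXT groups in comparison to saline controls that were not called, and was called for BLM+EXT9 with the run as a block (0.24, limma adjusted p = 0.0106) and on second-run arrays (0.28, limma adjusted p = 0.0234), so that the 2 probes differed.

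*Cxcl1*, which binds CXCR2 and attracts neutrophils, had signals of 7.01, 7.16 and 7.34 in BLM+EXT5-treated, 7.01, 7.20 and 7.78 in BLM+EXT9-treated and 6.85, 6.95 and 7.16 in BLM-treated mice and 6.75, 6.96 and 7.13 in saline controls. It rose by 0.33 ± 0.10 in BLM+EXT9-treated mice against saline controls and by 0.32 ± 0.10 in comparison to BLM-treated mice (limma adjusted p = 0.0213 and 0.0492), with overlap between groups. The call against BLM-treated mice held in 6 of 12 alternative settings and in 6 of 24 fits that left out 1 mouse. That against saline controls was lost on second-run arrays, with the 2 compared groups alone, and without BLM+EXT9 replicate 3 or 6. Neutrophil markers, with 0 of 4 tested genes called in this comparison, ranged over -0.52 to 0.51 in BLM+EXT9-treated and -0.33 to 0.45 in BLM-treated mice.

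*Cxcl12*, the CXCR4 ligand made by stromal and endothelial cells, had a bright probe (ILMN_2658908) at 9.55, 9.93 and 10.57 in BLM+EXT5-treated, 9.57, 10.26 and 10.69 in BLM+EXT9-treated and 10.10, 11.06 and 11.52 in BLM-treated mice and 9.84, 10.36 and 10.74 in saline controls. The BLM-treated mice spread widely and overlapped with every other group. In comparison to them it fell by 0.89 ± 0.24 in BLM+EXT5-treated mice (limma adjusted p = 0.0278; -1.11 under the run block, adjusted p = 0.0168). In BLM+EXT9-treated mice the change was -0.67 ± 0.24, not called without a block, and called with the block (-0.90, limma adjusted p = 0.0389) and on second-run arrays (-1.03, limma adjusted p = 0.0494). The call of BLM+EXT5 against BLM was lost under joint quantile normalization and without BLM replicate 4, 5 or 6 or BLM+EXT5 replicate 1, 2 or 4. The 2 other *Cxcl12* probes were not called in any comparison, and BLM-treated mice did not differ from saline controls at this probe beyond the spread (0.56 ± 0.24, limma adjusted p = 0.529). Endothelial markers ranged over -0.75 to 0.54 in BLM+EXT5-treated mice and -0.73 to 0.90 in BLM-treated mice, with 0 of 5 called, and 1 of 5 called lower with the run as a block. Their part in the change was not tested.

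*Cxcl17*, a mucosal chemokine of airway epithelium, had lower signals at both probes. At ILMN_1226394 they were 8.43, 8.75 and 9.54 in BLM+EXT5-treated, 8.36, 8.65 and 9.08 in BLM+EXT9-treated and 9.29, 9.58 and 10.20 in BLM-treated mice and 8.35, 9.82 and 9.999 in saline controls. The saline controls overlapped with both EXT groups through saline replicate 6, which was their lowest array, while all BLM+EXT9-treated mice lay below all BLM-treated mice. The change was -0.76 ± 0.23 for BLM+EXT5 and -0.88 ± 0.23 for BLM+EXT9 in comparison to saline controls (limma adjusted p = 0.0304 and 0.00911), of which the first was lost with the run as a block (limma adjusted p = 0.119 and 0.0437). Neither was called on second-run arrays. At ILMN_2783414 the changes were -0.83 and -0.89, and both calls were lost with the block and on second-run arrays. Against BLM-treated mice, ILMN_1226394 was called lower in both EXT groups and ILMN_2783414 in BLM+EXT9-treated mice. All of these calls were lost with the block and on second-run arrays. Smooth muscle markers (5 of 5 called lower in each EXT group in comparison to saline controls) and ciliated cell markers (5 of 6 called lower) moved with *Cxcl17* and were also low in saline replicate 6. Ciliated markers ranged over -0.73 to -0.09 in BLM+EXT5-treated, -0.44 to -0.19 in BLM+EXT9-treated and -0.09 to 0.57 in BLM-treated mice and -0.42 to 0.78 in saline controls. Of 3 tested club cell markers, 1 was called lower in BLM+EXT5-treated and 0 in BLM+EXT9-treated mice against saline controls. With the run as a block 0 club cell markers were called, while 5 of 5 smooth muscle and 5 of 6 ciliated markers were called lower in each EXT group. The part of airway tissue in the pieces of lung in these changes was not tested.

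*Cxcl15* (lungkine), a chemokine of lung epithelium in the mouse, rose by 0.56 ± 0.17 in BLM+EXT5-treated mice against saline controls (limma adjusted p = 0.0251), and the call was lost with the run as a block (limma adjusted p = 0.0625). AT2 markers moved with it, with 4 of 8 called higher in BLM+EXT5-treated and 3 of 8 in BLM+EXT9-treated mice against saline controls, and list levels of 0.09 to 0.45 and 0.01 to 0.26, against -0.74 to 0.17 in saline controls. AT1 markers were also called higher, 5 of 6 in BLM+EXT5-treated and 6 of 6 in BLM+EXT9-treated mice. *Cxcl14*, an epithelial and stromal chemokine, was called higher with the block but not without it, at 0.57 for BLM+EXT5 and 0.48 for BLM+EXT9 in comparison to saline controls (limma adjusted p = 0.0224 and 0.0444). Its second probe had changes of -0.18 and -0.21 in those groups and was not called. The CXCR3 ligands *Cxcl9* and *Cxcl10*, the B cell chemokine *Cxcl13*, the fractalkine gene *Cx3cl1* and the lymphotactin gene *Xcl1* were not called in any comparison.

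**Figure D4:**
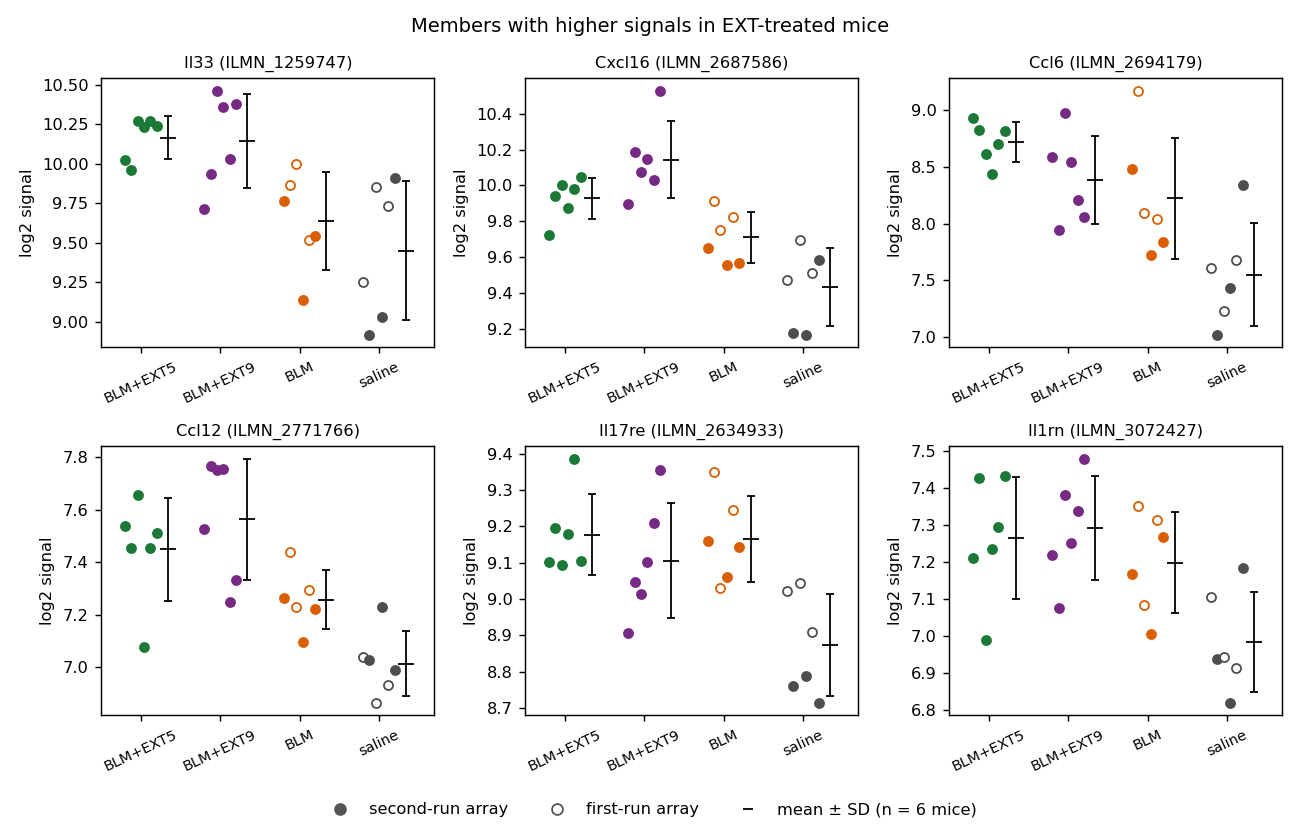
Log2 signals of each mouse for 6 member probes with higher calls in EXT-treated mice (y axis), by group, with first-run arrays open and second-run arrays filled, and with the mean and SD of 6 mice. For *Cxcl16* all BLM+EXT5 and BLM+EXT9 points lie above all saline points.

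Chemokine receptors had 9 of 18 genes above the filter, and *Ccr1*, *Ccr1l1*, *Ccr3*, *Ccr4*, *Ccr8*, *Ccr9*, *Ccr10*, *Cxcr2* and *Xcr1* lay below it. *Cx3cr1*, the fractalkine receptor of monocytes and tissue macrophages, was lower in BLM+EXT9-treated mice. Its signals were 8.11, 8.36 and 8.53 in BLM+EXT5-treated, 7.74, 7.91 and 8.31 in BLM+EXT9-treated and 8.11, 8.30 and 9.0 in BLM-treated mice and 7.99, 8.54 and 9.08 in saline controls. In BLM+EXT9-treated mice 5 of 6 were below all saline controls, with a change of -0.59 ± 0.15 (limma adjusted p = 0.00834; change -0.76 and adjusted p = 0.00241 with the block). Against BLM-treated mice it was called with the block but not without it (-0.59, limma adjusted p = 0.0286).

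*Mrc1* of the macrophage list was called higher in BLM+EXT9-treated mice against saline controls, and 0 macrophage markers were called against BLM-treated mice. *Cxcr1*, which binds the neutrophil-attracting chemokines, rose by 0.43 ± 0.13 in BLM+EXT5-treated mice against saline controls (limma adjusted p = 0.0239; 0.0396 with the block), with 5 of 6 mice above all saline controls. The call was lost on second-run arrays, and without saline replicate 1, 2 or 3 or BLM+EXT5 replicate 1. *Ccr2*, the monocyte receptor for *Ccl2*, *Ccl7* and *Ccl12*, was dim and fell by 0.14 ± 0.05 in BLM+EXT9-treated mice against saline controls (limma adjusted p = 0.0417), a call lost with the block (limma adjusted p = 0.276). *Ccr6*, *Ccr7*, *Cxcr3*, *Cxcr4*, *Cxcr5* and *Cxcr6* were not called in any comparison.

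Among IL-1 family ligands and inhibitors, 6 of 11 genes lay above the filter, and *Il1a*, *Il1f5*, *Il1f6*, *Il1f8* and *Il1f9* did not. *Il33*, an alarmin that is stored in nuclei of epithelial and stromal cells, read 9.96, 10.23 and 10.27 in BLM+EXT5-treated mice, 9.71, 10.19 and 10.46 in BLM+EXT9-treated mice, 9.14, 9.65 and 9.998 in BLM-treated mice and 8.92, 9.50 and 9.91 in saline controls. All BLM+EXT5-treated mice were above all saline controls, and 5 of 6 BLM+EXT9-treated mice were. The change in comparison to saline controls was 0.71 ± 0.17 for BLM+EXT5 and 0.69 ± 0.17 for BLM+EXT9 (1.64-fold and 1.62-fold; limma adjusted p = 0.0061 and 0.00582), and 0.87 and 0.85 under the run block (limma adjusted p = 0.00334 and 0.00297) and 0.88 and 0.86 on second-run arrays. Both calls held in all 12 alternative settings and all 24 fits that left out 1 mouse.

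In comparison to BLM-treated mice *Il33* had changes of 0.53 ± 0.17 for BLM+EXT5 and 0.51 ± 0.17 for BLM+EXT9 that missed the threshold (limma adjusted p = 0.0603 and 0.0577) and were called with the run as a block (0.69 and 0.67, limma adjusted p = 0.0319 and 0.0313). AT2 cells are a known source of *Il33* in the mouse lung, and 4 and 3 of 8 AT2 markers were called higher in the same groups against saline controls. Against saline controls the rise was not particular to AT2 markers, as 5 and 6 of 6 AT1 markers were called higher in these comparisons. Against BLM-treated mice 2 and 1 of 8 AT2 markers were called higher (4 and 3 with the run as a block). There 0 of 6 AT1 markers were called in either fit. The part of AT2 or AT1 cells in the *Il33* change was not tested.

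*Il1rn*, the IL-1 receptor antagonist, had signals of 6.99, 7.27 and 7.43 in BLM+EXT5-treated, 7.08, 7.30 and 7.48 in BLM+EXT9-treated and 7.01, 7.22 and 7.35 in BLM-treated mice and 6.82, 6.94 and 7.18 in saline controls. In each EXT group 5 of 6 mice were above all saline controls, with changes of 0.28 ± 0.08 and 0.31 ± 0.08 (limma adjusted p = 0.0219 and 0.0096; 0.0304 and 0.0155 with the block). Both *Il1rn* calls were lost on second-run arrays, and that of BLM+EXT5 also without saline replicate 5 or BLM+EXT5 replicate 2 or 6. *Il18*, an inflammasome product, had changes of 0.55 ± 0.20 and 0.48 ± 0.20 at its brighter probe in the EXT groups in comparison to saline controls, called with the block but not without it (0.74 and 0.67, limma adjusted p = 0.0225 and 0.03). Its dim second probe was called lower in BLM+EXT9-treated in comparison to BLM-treated mice (-0.16, limma adjusted p = 0.0496), a call lost with the block. The inflammasome product *Il1b*, the IL-18 inhibitor *Il18bp* and *Il1f10* were not called.

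IL-1 family receptors had 5 of 8 genes above the filter, and *Il1r2*, *Il1rapl1* and *Il1rapl2* did not. *Il18r1*, the ligand-binding chain of the IL-18 receptor, had signals at ILMN_1218525 of 9.08, 9.31 and 9.41 in BLM+EXT5-treated mice, 9.15, 9.36 and 9.55 in BLM+EXT9-treated mice, 9.45, 9.79 and 10.43 in BLM-treated mice and 9.72, 9.97 and 10.53 in saline controls. All EXT-treated mice lay below all saline controls. The change was -0.76 ± 0.15 for BLM+EXT5 and -0.69 ± 0.15 for BLM+EXT9 (limma adjusted p = 0.00146 and 0.00252), and -0.49 and -0.41 under the run block (limma adjusted p = 0.006 and 0.0126), so that the block moved the value by over 1.5 times. Against BLM-treated mice the changes of -0.63 and -0.56 lost their calls with the block. A second *Il18r1* probe (ILMN_1255514) had changes of -0.13 and -0.17 in comparison to saline controls and was not called.

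*Il1rap*, the shared accessory chain of IL-1 and IL-33 receptors, had 4 probes, of which 2 were called lower in BLM+EXT9-treated mice against saline controls in both fits (-0.20 and -0.19). These 2 calls were lost on second-run arrays. The same 2 probes were called lower in BLM+EXT9-treated against BLM-treated mice, and 1 of them in BLM+EXT5-treated mice against saline controls. All of the latter calls were lost with the block. *Il1rl2*, the IL-36 receptor, was called lower in both EXT groups in comparison to saline controls (-0.17 and -0.15), and both calls were lost with the block. *Il1r1*, the signalling IL-1 receptor, and *Il18rap* were not called in any comparison.

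In the common gamma chain, IL-4 and IL-13 family, 7 of 15 genes lay above the filter, and *Il2*, *Il2ra*, *Il4*, *Il9*, *Il9r*, *Il13ra2*, *Il21* and *Il21r* did not. *Il13ra1*, a receptor chain for IL-13 and IL-4, had signals of 8.42, 8.57 and 8.77 in BLM+EXT5-treated, 8.51, 8.63 and 8.82 in BLM+EXT9-treated and 8.87, 9.10 and 9.28 in BLM-treated mice and 8.59, 9.06 and 9.72 in saline controls. All EXT-treated mice lay below all BLM-treated mice, and the change in comparison to them was -0.50 ± 0.12 for BLM+EXT5 and -0.44 ± 0.12 for BLM+EXT9 (limma adjusted p = 0.0149 and 0.0251; 0.0293 and 0.0456 with the block). On second-run arrays the changes were -0.51 and -0.45 and not called. For BLM+EXT9, the call was also lost when arrays were centred or normalized jointly. Against saline controls *Il13ra1* was called lower in both EXT groups in both fits, with overlap between groups. Both of these calls were lost on second-run arrays, and that of BLM+EXT9 also under joint quantile normalization and with the 2 compared groups alone.

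*Il15ra*, the chain that presents IL-15, was dim and was lower in all EXT-treated mice than in any saline control or BLM-treated mouse at ILMN_1249759, with changes of -0.20 ± 0.05 in both EXT groups in comparison to saline controls (limma adjusted p = 0.00448 and 0.00439; 0.0341 and 0.0321 with the block). The calls in comparison to BLM-treated mice, at -0.16, were lost with the block, and those against saline controls were lost on second-run arrays. The other *Il15ra* probe (ILMN_1220603) was not called without a block. Its changes were -0.14 for BLM+EXT5 and -0.07 for BLM+EXT9 against saline controls, and -0.12 and -0.05 against BLM-treated mice. *Il15*, its ligand, was not called at ILMN_2610234 without a block, and was called higher there with the block, in both EXT groups in comparison to saline controls (0.23 and 0.20) and to BLM-treated mice (0.27 and 0.24). The changes against BLM-treated mice were also called on second-run arrays (0.33 and 0.29). Its 2 other probes were not called higher in any comparison, and the dim probe ILMN_1219869 was called lower in BLM+EXT9-treated in comparison to BLM-treated mice without the block (-0.13, limma adjusted p = 0.0496). *Il7*, a lymphocyte survival factor, was called lower in all 4 EXT comparisons (-0.23 to -0.27), and all 4 calls were lost with the block. *Il13*, *Il2rb* and *Il4ra* were not called.

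*Il17re*, the IL-17C receptor chain of epithelium, was the 1 member called in BLM-treated mice against saline controls with the run as a block, where without a block 0 were called. At ILMN_3163006 its signals were 8.53, 8.63 and 8.77 in BLM+EXT5-treated mice, 8.38, 8.52 and 8.59 in BLM+EXT9-treated mice, 8.50, 8.58 and 8.74 in BLM-treated mice and 8.25, 8.34 and 8.45 in saline controls. All BLM-treated and all BLM+EXT5-treated mice were above all saline controls. The change was 0.29 ± 0.05 for BLM+EXT5, 0.15 ± 0.05 for BLM+EXT9 and 0.24 ± 0.05 for BLM in comparison to saline controls (limma adjusted p = 0.000877, 0.0456 and 0.0624), and that of BLM was 0.25 on first-run and 0.24 on second-run arrays. With the block the adjusted p in limma for BLM was 0.0316. The BLM+EXT9 call held in 7 of 12 alternative settings and in 13 of 24 fits that left out 1 mouse.

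A second *Il17re* probe (ILMN_2634933) had changes of 0.30 ± 0.08 for BLM+EXT5, 0.23 ± 0.08 for BLM+EXT9 and 0.29 ± 0.08 for BLM in comparison to saline controls (limma adjusted p = 0.00806, 0.03 and 0.153). The third, dim probe had -0.06, -0.01 and 0.00 and was not called. *Il17rc*, the co-receptor chain for IL-17A and IL-17F, fell at ILMN_2785353 by 0.40 ± 0.09 in BLM+EXT9-treated in comparison to BLM-treated mice (limma adjusted p = 0.009; 0.041 with the block). Its calls at 2 probes against saline controls in the same mice, at -0.27 and -0.34, were lost with the block. The *Il17rc* call against BLM-treated mice was lost on second-run arrays. The shared IL-17 receptor chain *Il17ra*, *Il17d* and *Il17rd* were not called, and *Il17a*, *Il17b*, *Il17c*, *Il17f*, *Il17rb* and *Il25* lay below the filter.

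Of the IL-6 and IL-12 family, 5 of 13 genes lay above the filter. Single dim probes of *Il6ra*, the IL-6 receptor, and *Il27ra*, the IL-27 receptor, were called lower in BLM+EXT9-treated mice against saline controls (-0.16 and -0.14), and both calls were lost with the block. *Il6st*, the shared signalling chain gp130, *Il11* and *Il12a* were not called. *Il6*, *Il12rb1*, *Il12rb2*, *Il23a*, *Il23r*, *Il27*, *Il31* and *Il31ra* lay below the filter. In the IL-10 family 4 of 11 genes lay above it, and *Il20ra*, a chain of the IL-20 receptor, fell by 0.29 ± 0.06 in BLM+EXT9-treated mice against saline controls (limma adjusted p = 0.00244; 0.0186 with the block). *Il20ra* was also called lower in BLM+EXT5-treated mice against saline controls, and that call was lost with the block and on second-run arrays. At its brighter probe, *Il10rb* was called higher in BLM+EXT9-treated mice against saline controls with the block (0.19, limma adjusted p = 0.0493). Without the block the change was -0.07 at this probe and 0.11 at its other probe, and neither was called. *Il10ra* and *Il22ra1* were not called. *Il10*, *Il19*, *Il20*, *Il20rb*, *Il22*, *Il22ra2* and *Il24* lay below the filter.

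Of the colony-stimulating factors with the IL-3 and IL-5 family, 10 of 12 genes lay above the filter, and *Il3* and *Il5* did not. *Il3ra*, the IL-3 receptor chain, had signals of 7.57, 7.66 and 7.82 in BLM+EXT5-treated, 7.53, 7.6 and 7.68 in BLM+EXT9-treated and 7.39, 7.66 and 7.76 in BLM-treated mice and 7.37, 7.43 and 7.49 in saline controls. All EXT-treated mice lay above all saline controls, with changes of 0.25 ± 0.05 and 0.17 ± 0.05 (limma adjusted p = 0.00208 and 0.0187; 0.00647 and 0.0391 with the block). BLM-treated mice had a change of 0.20 ± 0.05 with 5 of 6 mice above all saline controls (limma adjusted p = 0.171). The common beta chain *Csf2rb* and its close paralog *Csf2rb2*, whose probes may not tell them apart, were called higher in BLM+EXT9-treated mice against saline controls with the block but not without it (0.21 each, limma adjusted p = 0.0215 and 0.0353), and *Csf2rb* likewise in BLM+EXT5-treated mice (0.19, limma adjusted p = 0.0424). *Csf1*, *Csf2*, *Csf2ra*, *Csf3*, *Csf3r*, *Il34* and *Il5ra* were not called in any comparison. *Tnf* and *Ifng* lay below the filter, and the T cell attractant *Il16* was not called. *Il4i1* fell by 0.38 ± 0.09 in BLM+EXT5-treated mice against saline controls (limma adjusted p = 0.00724, and 0.0399 with the block). That call was lost on second-run arrays. Its call in BLM+EXT9-treated mice, at -0.32, was lost with the block and on second-run arrays.

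Between the compounds, which were given at the same dose and over the same time, 0 of 113 member probes were called in BLM+EXT9-treated in comparison to BLM+EXT5-treated mice, where 0.146% of all tested probes were called (0.0574% higher and 0.0883% lower). At an unadjusted p under 0.05 there were 12 (10.6%), where 9.24% of all tested probes stood. The smallest p was that of *Il17rc*, with a difference of -0.26 (95% confidence interval -0.44 to -0.08; limma adjusted p = 0.289). The difference was -0.39 for *Cx3cr1* (-0.70 to -0.07), -0.37 for *Ccl21c* (-0.72 to -0.03), 0.22 for *Cxcl16* (0.01 to 0.42) and -0.02 for *Il33* (-0.37 to 0.33). The groups did not overlap at 0 member probes, where 0.437% of all tested probes lay higher and 0.729% lower without overlap. With the run as a block 0 member probes were called, where 0.446% of all tested probes were (0.177% higher and 0.269% lower), and on second-run arrays alone 0, where 0.137% were.

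Genes that act with the members but fall outside the symbol rule were counted from lists of the same kind. Among all 12057 genes, 533 were called higher and 1590 lower in BLM+EXT5-treated mice against saline controls. In BLM+EXT9-treated mice 817 were called higher and 2255 lower. With the block these counts were 836 and 827 for BLM+EXT5, and 1202 and 1130 for BLM+EXT9. Of 12 tested cytokine and chemokine genes, 1, the platelet chemokine gene *Ppbp*, was called lower in BLM+EXT5-treated mice against saline controls (-0.67 ± 0.19, limma adjusted p = 0.0205; 0.0526 with the block), and 0 in BLM+EXT9-treated mice. Of 15 tested receptors, 2 were called higher and 1 lower in BLM+EXT9-treated mice, namely the scavenging receptors *Ackr2* (1.22 ± 0.27) and *Ackr3* (0.27 ± 0.07) and the CCR7 ligand scavenger *Ackr4* (-0.37 ± 0.07), each of them called with the block too (limma adjusted p = 0.0227, 0.00934 and 0.00824). In BLM+EXT5-treated mice 1 was called higher (*Ackr2*) and 1 lower (*Il7r*), and 0 with the block. Of 17 tested JAK, STAT and SOCS genes, 3 were called higher and 1 lower in BLM+EXT9-treated mice against saline controls, among them the feedback inhibitor *Socs3* (0.57 ± 0.13, limma adjusted p = 0.00332), and with the block 2 were called higher, *Socs3* and *Jak3*. In BLM+EXT5-treated mice 2 were called higher, and 0 with the block. Of 19 tested NF-kappaB and IL-1 signalling genes, 2 were called lower in BLM+EXT5-treated mice and 4 in BLM+EXT9-treated mice against saline controls, among them *Ikbkg* (-0.40 ± 0.07 and -0.51 ± 0.07), and 0 were called higher. With the block 1 was called lower in BLM+EXT5-treated mice, and in BLM+EXT9-treated mice 2 were called lower (*Ikbkg* and *Traf2*) and 2 higher (the NF-kappaB feedback inhibitor *Tnfaip3*, 0.27, and *Birc3*, 0.16).

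**Figure D5:**
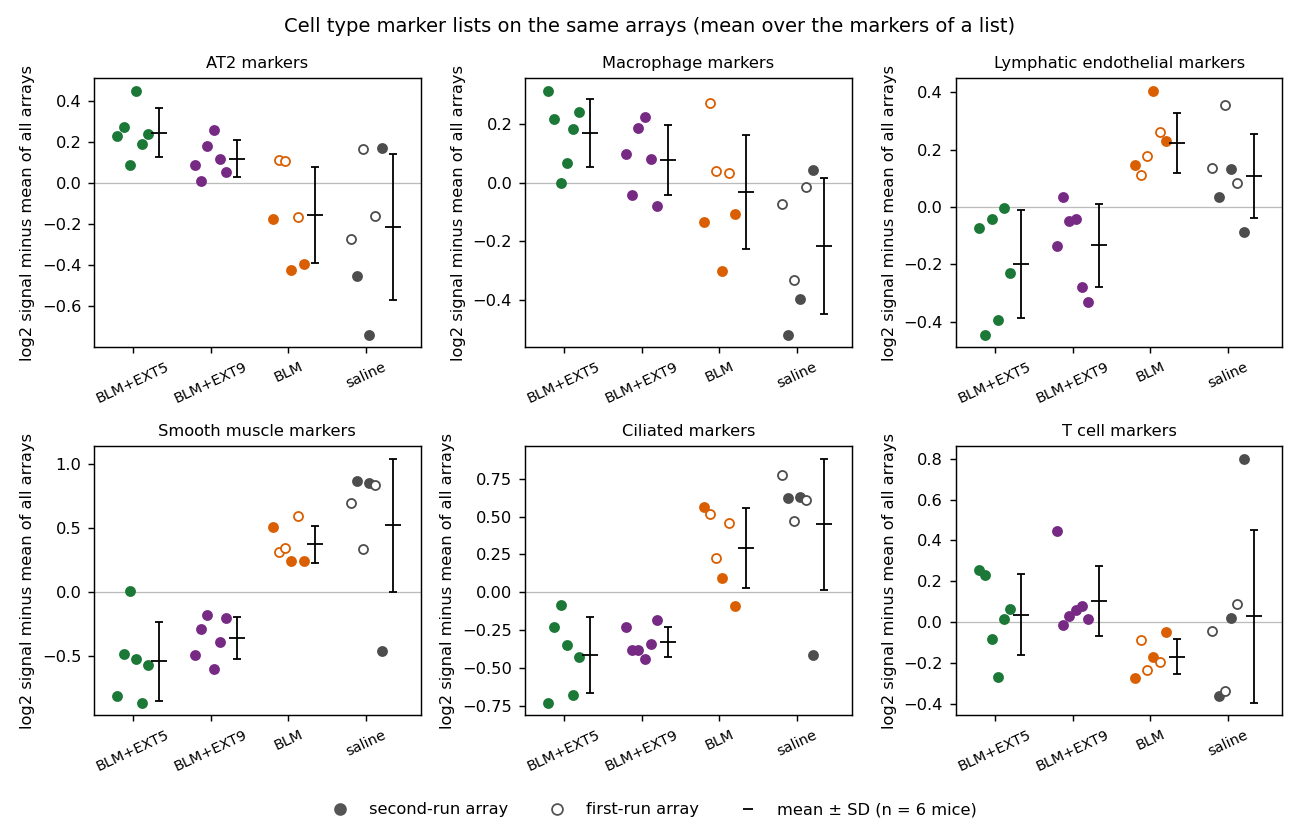
Level of 6 cell type marker lists on each array (y axis, mean log2 signal of the tested markers minus the mean over all arrays), by group, with first-run arrays open and second-run arrays filled, and with the mean and SD of 6 mice. Smooth muscle and ciliated markers lie lower in EXT-treated mice than in saline controls except saline replicate 6.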

How the data were processed

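RNA from the distal lung of 24 mice was hybridized to Illumina MouseWG-6 v2 chips, with 1 array per mouse and 6 per group. The authors deposited linear signal intensity values after quantile normalization. These were put on the log2 scale without an added constant. The deposited values fell into 2 sets with 1 sorted distribution each, which were taken as the array runs, so that the run of an array is inferred from its values. Another table, of non-normalized values, holds 48 columns under names that match no sample, and none of these values was used (its row order served to find the rows out of place). The aligner of probes and the genome build used for the probes are not given in the sources used here, and no probe positions are given.

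Of 45281 probes, those above the median mean log2 signal (6.705) were tested. Group means over all 24 arrays were compared with limma 3.58.1 in R 4.3.3 without covariates, in 6 comparisons, with Benjamini-Hochberg adjustment over all 22640 probes. The methods of the study used SAM. Members were counted after the fit. A run was added as a block, estimated from the saline and BLM arrays only, and second-run arrays were fitted alone. The scripts were tested on simulated data. Alternatives were median centring, joint quantile normalization, 16 added before log2, other filters, a fit of only the 2 groups compared, array weights, the trend and robust settings of limma, blocks by replicate number, and leaving out each mouse. Named genes are members called in any comparison in either fit, the 5 with the smallest p in each, and members fixed by role. Promoters were taken from RefSeq. The members and lists were chosen with earlier results of these data known. Array number limits the precision, and the mice are biological replicates per the labels.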

Additional observations from a re-analysis of the deposited data

Results flagged for a closer look

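Each member probe called in a comparison, or named for its small p or its role, was searched in each group of 6 mice for a single array far from the rest (log2 signals, a gap to the nearest mouse over 0.625 of the group's range). Of 364 groups searched, 20 held such an array, 12 high and 8 low, and chance gives about 1 in 20 groups. High single arrays included *Il10ra* (ILMN_1219946) in BLM+EXT5 replicate 6 at 7.927, against 7.403 to 7.543 in the other mice of its group. Another was *Cxcl17* (ILMN_1226394) in BLM+EXT5 replicate 3 at 9.542, against 8.433 to 8.818 in the other mice of its group. Also high was *Il10rb* (ILMN_1256085) in saline replicate 2 at 7.37, against 6.987 to 7.073 in the other mice of its group. In a further group the high array was *Il10rb* (ILMN_1256085) in BLM+EXT5 replicate 6 at 7.326, against 7.028 to 7.117 in the other mice of its group. The array set apart was *Cx3cr1* (ILMN_2625125) in BLM replicate 6 at 8.997, against 8.112 to 8.331 in the other mice of its group. Higher than the rest of the group was *Il17re* (ILMN_2634933) in BLM+EXT5 replicate 5 at 9.386, against 9.095 to 9.195 in the other mice of its group. A single mouse stood out for *Il1rap* (ILMN_2740465) in BLM+EXT5 replicate 1 at 6.959, against 6.78 to 6.838 in the other mice of its group. Set above the others was *Ccr7* (ILMN_2821118) in BLM+EXT9 replicate 1 at 7.373, against 6.928 to 7.094 in the other mice of its group. One more high value was that of *Ccl7* (ILMN_2835117) in BLM+EXT5 replicate 1 at 7.195, against 6.827 to 6.958 in the other mice of its group. Also apart was *Il27ra* (ILMN_3002095) in BLM+EXT9 replicate 1 at 7.921, against 7.438 to 7.532 in the other mice of its group. The group's upper extreme was *Cxcl10* (ILMN_3142803) in BLM replicate 2 at 7.113, against 6.773 to 6.88 in the other mice of its group. Lastly, a high value was found for *Cxcl12* (ILMN_3158250) in saline replicate 4 at 8.724, against 8.057 to 8.298 in the other mice of its group.

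Among low single arrays was *Cxcl17* (ILMN_1226394) in saline replicate 6 at 8.351, against 9.657 to 9.999 in the other mice of its group. Likewise low was *Il15ra* (ILMN_1249759) in BLM+EXT9 replicate 4 at 6.619, against 6.721 to 6.766 in the other mice of its group. Below the rest lay *Cxcl16* (ILMN_1254723) in BLM+EXT9 replicate 1 at 7.461, against 7.592 to 7.641 in the other mice of its group. Another low value was *Il6st* (ILMN_2608184) in BLM replicate 5 at 9.255, against 9.573 to 9.758 in the other mice of its group. In its group the lowest was *Cxcl14* (ILMN_2760800) in BLM+EXT5 replicate 5 at 10.15, against 10.62 to 10.78 in the other mice of its group. Far below the others was *Ccl12* (ILMN_2771766) in BLM+EXT5 replicate 4 at 7.075, against 7.453 to 7.658 in the other mice of its group. The low array here was *Cxcl17* (ILMN_2783414) in saline replicate 6 at 8.382, against 9.796 to 10.46 in the other mice of its group. Low as well was *Il3ra* (ILMN_2916571) in BLM replicate 2 at 7.395, against 7.622 to 7.757 in the other mice of its group.

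BLM+EXT9 replicate 1 carried 3 of these values, and BLM replicate 2, BLM+EXT5 replicates 1, 5 and 6 and saline replicate 6 carried 2 each. In limma's test of whether the BLM change differed between the 2 runs, 0 member probes had an adjusted p under 0.05.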

How the results depend on the processing

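In 91 calls of member probes without a block, 0 changed sign under any alternative, and 55 were kept with the run as a block, 23 on second-run arrays alone, 76 with arrays centred on 1 median and 70 with joint quantile normalization. With 16 added before log2, 87 were kept, with no filter 80, with the stricter filter 79 of 79, with the 2 compared groups alone 65, with trend and robust options 89, with array weights 87 and without the rows out of place 90. The cause of lost calls was not tested.

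By comparison, called member probes numbered 1 with arrays centred or with the run as a block for BLM against saline controls (0 otherwise), where leaving out 1 mouse gave 0 to 1. For BLM+EXT5 against saline controls they numbered 8 on second-run arrays and 47 with array weights, and 20 to 33 with 1 mouse left out. For BLM+EXT9 against saline controls they numbered 12 on second-run arrays, 22 with the 2 groups alone and 47 with array weights, and 28 to 40 with 1 mouse left out. For BLM+EXT5 against BLM they numbered 2 on second-run arrays and 17 with array weights, and 6 (without BLM replicate 5) to 14 (without saline replicate 6) with 1 mouse left out. For BLM+EXT9 against BLM they numbered 12 with the run as a block, 6 on second-run arrays and 20 with array weights, and 8 (without BLM replicate 5) to 23 (without saline replicate 6) with 1 mouse left out. For BLM+EXT9 against BLM+EXT5 0 were called in each alternative.

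Scaling moved the share of lower calls among the probes called. For BLM+EXT5 against saline controls it was 76.5%, and 59.7% with arrays centred, 53.4% with joint quantile normalization and 51.4% with the run as a block. For BLM+EXT9 against saline controls it was 76.2%, and 58.2%, 52.6% and 51.8%. For BLM+EXT5 against BLM it was 86.2%, and 67.3%, 57.6% and 45.2%, and for BLM+EXT9 against BLM 83.1%, and 60.6%, 51.2% and 45.5%.

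The replicate number does not pair the mice. Of 36 pairs of same-numbered mice 11 correlated at over 0.1 in their deviations, with r from -0.64 to 0.75, and 6 of 24 mice matched best with their own number. With the replicate number as a block, member probes called were 0, 25, 34, 11, 16 and 0 for the BLM, BLM+EXT5 and BLM+EXT9 comparisons against saline controls, the BLM+EXT5 and BLM+EXT9 comparisons against BLM, and BLM+EXT9 against BLM+EXT5.

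The limits are 6 mice per group, dim probes near the filter with small changes, and EXT groups that lie in 1 run, where the run effect rests on 12 saline and BLM arrays. Several members differ between their own probes.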
